A study of Mus musculus with 6 samples.

Results

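The 10 genes described here encode small interferon effectors and members of the Schlafen family, measured in regulatory T cells (Tregs) of ageing mouse liver. The effectors are Ifi27l2a, Rtp4, Isg15, Isg20, Bst2 and Xaf1, and the Schlafen genes are Slfn1, Slfn2, Slfn5 and Slfn8. They were taken by gene name as interferon-induced effectors outside the IFIT, OAS and GTPase families. All 10 were found among the 13623 genes listed, and all 10 passed the filter on low counts. They were selected on their known interferon induction and on their KO and WT counts in these same libraries, so the difference between genotypes is given for these genes as a description, without a test. The 6 libraries were made from untreated liver Tregs of mice aged 14 months, 3 from Altre knockout (KO) mice and 3 from Altre wild-type (WT) mice. Altre is a long non-coding RNA described in Tregs. The sources used here give neither the way the knockout allele was made nor whether animals were pooled. The labels number the libraries of a genotype 1 to 3 without saying that they came from separate animals, so SDs and p-values cover the spread between these samples only, and that spread may be technical.

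Interferons signal through surface receptors and JAK kinases to transcription factors. Type I interferon acts on the interferon-stimulated response element (ISRE) in the promoters of its targets, and type II interferon on the interferon-gamma activated site (GAS). In T cells this programme limits viruses, and some of its products, the Schlafens among them, are known for their part in growth arrest and quiescence. Mouse Schlafens share an N-terminal core, to which the long forms Slfn5 and Slfn8 add a helicase-like region that the short forms Slfn1 and Slfn2 lack.

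Counts summed to 25490761, 25617168 and 30870786 in KO replicates 1, 2 and 3, and to 28349682, 25315425 and 27590088 in WT replicates 1, 2 and 3, over the genes listed. The 10 genes had between 980 and 22193 counts in a library, so counting error was at most 3.19% of a value. Foxp3, the factor that defines Tregs, had 144, 81.3 and 98.6 CPM (counts divided by the library total and brought to 1 common scale) in KO libraries and 86.3, 70.6 and 80.7 CPM in WT libraries, and Cd3e of the T cell receptor complex averaged 1562 CPM in KO and 1439 CPM in WT. The T cell co-receptor gene Cd4 was higher in every KO library, at 1258, 993 and 991 CPM against 902, 739 and 753 CPM in WT, and did not pass by edgeR (adjusted p = 0.842) but did by DESeq2 with the replicate block (adjusted p = 0.000256). Ighm, the immunoglobulin heavy chain of B cells, was also abundant, at 2788 ± 417 CPM in KO and 3027 ± 576 CPM in WT (SD, n = 3 each). Altre was not analysed here, and so the genotype labels could not be checked against it.

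Levels can be compared between genes only per length, and CPM per kilobase (kb) of merged exons spanned a wide range. Ifi27l2a, a small hydrophobic protein of the ISG12 family, led with 1228 CPM per kb over the 6 libraries, above 99.7% of the genes tested. Slfn2, which keeps mouse T cells quiescent, followed at 427 CPM per kb, above 99.0% of genes. Slfn1, a growth-restraining Schlafen of thymocytes and T cells, and Bst2 (tetherin, which holds budding virus at the cell surface) came next at 140 and 138 CPM per kb. Their order was not fixed, since Slfn1 was the higher of the pair in 3 of 6 libraries. Isg15 stood at 89.2, Rtp4 at 54.4, Slfn8 at 42.4, Isg20 at 42.4, Xaf1 at 13.0 and Slfn5 at 6.86 CPM per kb. Slfn8 lay above Isg20 in 3 of 6 libraries. Among neighbours in this order, only Ifi27l2a and Slfn2, Slfn2 and Slfn1, Isg20 and Xaf1, and Xaf1 and Slfn5 had library values that did not overlap. Isg20 and Xaf1 have several transcript forms, and by their longest transcript they stood at 72.5 and 23.4 CPM per kb. The order depends on this choice. By longest transcript, Bst2 at 158 CPM per kb was above Slfn1 at 140, and Isg20 was above Rtp4 at 62.4 and Slfn8 at 43.2.

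**Figure D1:**
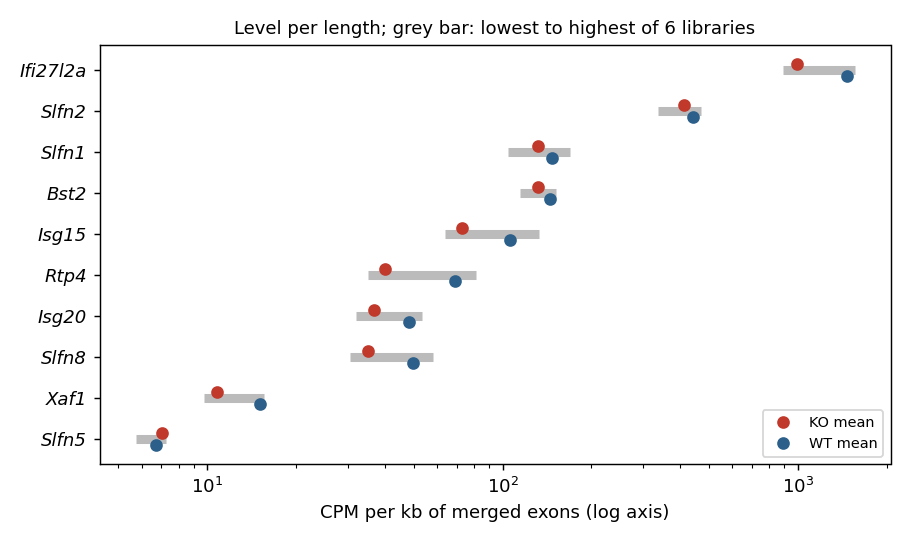
Level per length of the 10 genes, in CPM per kb of merged exons on a log axis. Red and blue points are KO and WT means of 3 libraries, and grey bars run from the lowest to the highest of the 6 libraries. Levels run from 6.86 CPM per kb for Slfn5 to 1228 CPM per kb for Ifi27l2a.

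The 4 Schlafen genes lie together on chromosome 11 between 82951349 and 83122670 (171 kb, GRCm38), and Xaf1 lies on the same chromosome 10.6 Mb away. The effectors are spread over the genome, with Isg15 on chromosome 4 (156199424 to 156200818), Isg20 on chromosome 7 (78913424 to 78920396), Bst2 on chromosome 8 (71534255 to 71537456), Ifi27l2a on chromosome 12 (103442167 to 103443680) and Rtp4 on chromosome 16 (23520291 to 23614222). Schlafen genes arose by duplication, and their counts are uncertain where they share sequence. Of the 50-base stretches in Slfn8 transcripts, 14.6% also occur in transcripts of other genes, most of them in the pseudogene Slfn10-ps at 10.1%. For Slfn2 the share was 4.27%, with Slfn4, and for Slfn1 it was 0.606%. Slfn5 shared 11.1%, mostly with its antisense gene Slfn5os, and Rtp4 shared 11.6% with the overlapping transcript Gm45338. Isg20 and Bst2 shared none. Ifi27l2a shared 0.483%, Xaf1 1.61% and Isg15 3.96%. No source used here says whether counting used strand. Reads in the 559 exon bases that Slfn5 and Slfn5os share, 8.84% of Slfn5 exons, therefore cannot be told apart.

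RefSeq promoter windows on GRCm38.p6, from 250 bases before to 50 bases after each start site, were matched for 8 of the 10 genes. The ISRE core searched was GAAA, 2 bases of any kind and GAAA, on both strands. It was found in 4 of the 8 genes (50%), against 3.99% of all genes with a window and 62.5% of the other interferon-induced genes listed. The stretches shown are the 160 bases before the start site, on the strand of the gene, with ISRE core matches in capitals. They show how the element is arranged in 3 of these genes, beside 2 without it. The first match in Isg15 starts 78 bases before the start site, those in Bst2 start 130 and 124 bases before it, and that in Slfn8 starts 48 bases before it and reads on the opposite strand.
Isg15 (chr4:156200819-156200978, minus strand): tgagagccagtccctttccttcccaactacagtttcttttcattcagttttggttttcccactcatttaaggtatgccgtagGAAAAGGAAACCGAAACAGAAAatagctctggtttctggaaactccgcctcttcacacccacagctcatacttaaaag
Bst2 (chr8:71537473-71537632, minus strand): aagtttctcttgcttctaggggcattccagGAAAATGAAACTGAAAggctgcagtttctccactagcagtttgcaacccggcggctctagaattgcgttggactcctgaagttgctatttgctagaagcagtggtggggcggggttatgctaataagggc
Slfn8 (chr11:83020811-83020970, minus strand): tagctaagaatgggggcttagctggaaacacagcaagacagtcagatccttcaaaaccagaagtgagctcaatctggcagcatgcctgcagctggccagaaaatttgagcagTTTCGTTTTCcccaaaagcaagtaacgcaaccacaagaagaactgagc
Xaf1 (chr11:72301469-72301628, plus strand): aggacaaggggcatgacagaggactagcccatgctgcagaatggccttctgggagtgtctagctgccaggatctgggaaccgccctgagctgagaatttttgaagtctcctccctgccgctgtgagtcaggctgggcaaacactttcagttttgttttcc
Slfn2 (chr11:83064952-83065111, plus strand): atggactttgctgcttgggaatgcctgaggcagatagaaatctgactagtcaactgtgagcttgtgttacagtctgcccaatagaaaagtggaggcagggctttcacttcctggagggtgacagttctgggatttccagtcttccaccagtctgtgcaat

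In Isg15 the run in capitals holds 3 overlapping core matches, and in Bst2 it holds 2. The fourth gene with a match was Slfn5, whose core starts 155 bases before its RefSeq start site within aaagtGAAAAAGAAAaaaaa, beside a run of A. The longer form, the core followed directly by CT, was found in Bst2 and Slfn8, 2 of 8 genes (25%) against 0.303% of all genes. The GAS letters searched were TTC, 3 bases of any kind and GAA, found in 2 of 8 genes (25%) against 9.55% of all genes. They were Isg20, with TTCTTGGAA 73 bases before its first start site, and Bst2, with TTCCAGGAA 136 bases before its start site and 3 bases into the first ISRE core. No ISRE core or GAS letters were found in the windows of Xaf1, Slfn1 and Slfn2.

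Among the effectors, Ifi27l2a was lower in KO Tregs by the widest margin in CPM. Its levels were 414, 456 and 509 CPM in KO replicates 1, 2 and 3, against 720, 666 and 646 CPM in WT replicates 1, 2 and 3. Every KO library lay below every WT library, with the lowest WT value 1.27 times the highest KO value. The log2 fold change, KO over WT, was -0.56 ± 0.11 (SE, edgeR fit across all genes), which puts the KO mean at 67.8% of the WT mean. Ifi27l2a supplied 53.2% to 55.9% of the summed CPM of the 6 effectors in KO libraries and 54.0% to 59.0% in WT libraries. Without it the other 5 effectors summed to 332, 401 and 401 CPM in KO, against 539, 464 and 550 CPM in WT. The summed level was lower in each KO library with and without its most abundant gene. Its relative Ifi27 had 281, 322 and 254 CPM in KO and 293, 322 and 388 CPM in WT, and the groups overlapped. In bulk samples of this kind, fewer cells of a type and less RNA per cell cannot be told apart.

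Rtp4, which helps receptors reach the cell surface, had the lowest ratio of the 10 genes, with a KO mean 58.3% of the WT mean. It had 74.7, 87.1 and 94.5 CPM in KO libraries and 174, 126 and 140 CPM in WT libraries. The groups did not overlap. The means were 85.4 ± 9.96 CPM in KO and 147 ± 24.7 CPM in WT (SD, n = 3 each), a log2 fold change of -0.78 ± 0.16 (SE).

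Isg15 encodes a ubiquitin-like protein that is attached to other proteins during an interferon response. It had 48.2, 54.2 and 63.0 CPM in KO libraries, against 75.2, 63.5 and 101 CPM in WT libraries. The groups did not overlap, but KO replicate 3 and WT replicate 2 all but touched. Its log2 fold change was -0.53 ± 0.19 (SE), and -0.34 without WT replicate 3, the library with the highest value. Of 5 genes for enzymes that handle ISG15, 0 had all KO libraries below all WT libraries, beside 4.67% of all genes tested. Usp18, which removes ISG15 and restrains the interferon receptor, had 61.6, 75.8 and 94.9 CPM in KO and 92.5, 92.9 and 97.8 CPM in WT. Its groups overlapped, and its log2 fold change was -0.29 ± 0.17 (SE). The ligase genes Herc6 and Trim25 had log2 fold changes of -0.27 ± 0.17 and -0.29 ± 0.17 (SE), or -0.15 and -0.17 without WT replicate 1, and the conjugating enzyme Ube2l6 had -0.03 ± 0.11. Uba7, which activates ISG15, was higher in each KO library, at 166, 164 and 156 CPM against 142, 144 and 140 CPM in WT. None of the 5 passed, the smallest adjusted p being 0.907 (edgeR quasi-likelihood test, Benjamini-Hochberg over 12789 genes), and 0 had an unadjusted p under 0.05 or a DESeq2 call. Isg15 was not called by edgeR or DESeq2 either, so the calls do not set it apart from these 5.

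Isg20, an exonuclease that degrades single-stranded RNA, had 59.5, 75.9 and 68.8 CPM in KO libraries and 84.6, 84.8 and 99.4 CPM in WT libraries. All KO values lay below all WT values, and the log2 fold change was -0.40 ± 0.15 (SE). Its relatives Isg20l2 and Aen averaged 13.2 ± 4.66 and 41.6 ± 4.35 CPM in KO, against 18.5 ± 3.82 and 42.6 ± 5.59 CPM in WT (SD, n = 3 each), and for both the groups overlapped. Xaf1, which binds and opposes the caspase inhibitor XIAP, had 45.9, 49.8 and 56.8 CPM in KO and 73.0, 65.6 and 73.3 CPM in WT, again without overlap. Its log2 fold change was -0.47 ± 0.15 (SE). Its partner gene Xiap had 60.3, 43.5 and 40.8 CPM in KO and 75.8, 43.0 and 39.0 CPM in WT, where replicate 1 was the highest library of each genotype. The related inhibitors Birc2 and Birc3 averaged 161 and 169 CPM in KO, against 157 and 159 CPM in WT. Bst2 was the effector whose groups overlapped, at 104, 134 and 118 CPM in KO and 132, 123 and 137 CPM in WT. Its log2 fold change was -0.14 ± 0.13 (SE), and leaving out KO replicate 1 or KO replicate 2 gave -0.05 or -0.25.

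**Figure D2:**
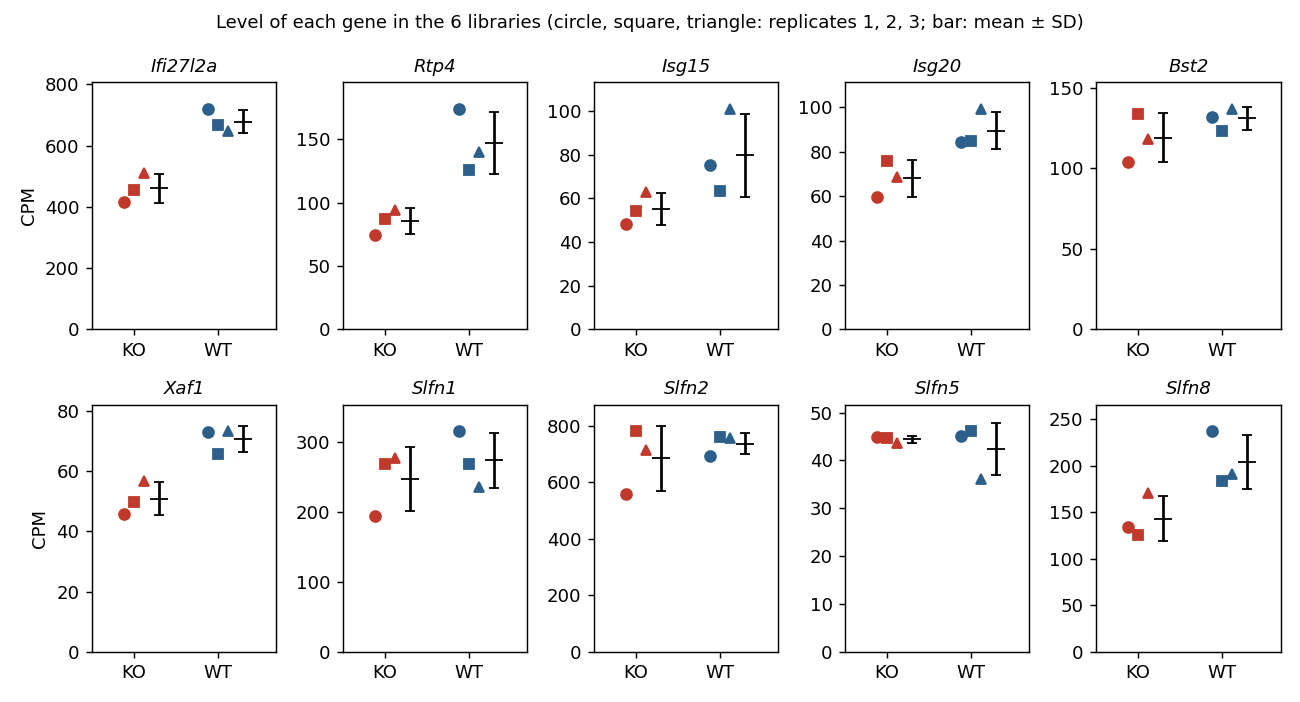
CPM of each of the 10 genes in the 6 libraries, with KO (red) left of WT (blue), each axis starting at 0. Circles, squares and triangles are replicates 1, 2 and 3, and black bars are mean ± SD of 3 libraries. The KO points lie below all WT points for Ifi27l2a, Rtp4, Isg15, Isg20, Xaf1 and Slfn8, and the groups overlap for Bst2, Slfn1, Slfn2 and Slfn5.

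Among the 4 Schlafen genes described, Slfn8 alone had groups that did not overlap. It had 134, 125 and 171 CPM in KO libraries and 237, 183 and 191 CPM in WT libraries, a log2 fold change of -0.51 ± 0.16 (SE). The highest KO library and the lowest WT library were close, at a ratio of 1.07 for WT over KO. Its neighbour Slfn9, a close relative with 21.2, 15.8 and 21.7 CPM in KO and 24.5, 23.7 and 21.9 CPM in WT, was also lower in each KO library, though by a narrow gap between the highest KO and the lowest WT library. Its log2 fold change was -0.26 ± 0.21 (SE), or -0.14 without KO replicate 2, and it did not pass (adjusted p = 0.953, edgeR).

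Slfn2, the most abundant Schlafen, had 558, 781 and 715 CPM in KO libraries and 694, 760 and 756 CPM in WT libraries. KO replicate 2 was the highest of all 6 libraries and KO replicate 1 the lowest. The log2 fold change was -0.10 ± 0.13 (SE), and its sign turned without KO replicate 1, to 0.02. Slfn1 had 194, 269 and 277 CPM in KO and 316, 269 and 236 CPM in WT, a log2 fold change of -0.15 ± 0.16 (SE) that came to -0.0012 without KO replicate 1. Slfn5, a long Schlafen found in the nucleus, was the 1 gene of the 10 with a higher mean in KO, at 44.9, 44.6 and 43.6 CPM against 45.0, 46.1 and 36.2 CPM in WT. Its log2 fold change was 0.06 ± 0.16 (SE), and -0.05 without WT replicate 3, its lowest library. The KO libraries of Slfn5 were close together, with a coefficient of variation of 1.60%, against 12.8% in WT. Slfn3, of the middle group of the family, was scarce, with 2.63 ± 0.495 CPM in KO and 2.54 ± 1.54 CPM in WT (SD, n = 3 each).

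Over the 10 genes, 9 had a lower mean in KO and the median log2 fold change was -0.44, beside 49.2% of the 12789 genes tested with a lower mean and a median of 0.00. The median was -0.50 over the 6 effectors and -0.13 over the 4 Schlafens. In 6 of the 10, all KO libraries lay below all WT libraries, and in 0 they all lay above, where 4.67% and 5.60% of all genes tested did so. These counts follow from how the genes were chosen and are a description. No gene of the 12789 passed an adjusted p of 0.05 by edgeR (0%), while 744 (5.82%) had an unadjusted p under 0.05 and limma-voom called 0. DESeq2 with genotype alone called 46 of the 13589 genes to which it gave an unadjusted p (0.339%), among them Ifi27l2a and Rtp4. The authors' deposited table calls Ifi27l2a, Rtp4 and Slfn8 lower in KO, 3 of the 10, and calls 1.37% of its genes lower. Of the 247 genes the authors' deposited table calls in either direction, 244 were also called by DESeq2 with the replicate number as a block, which gave the same 3 of the 10, and 45 by DESeq2 with genotype alone. The numbers were not taken here as pairing the libraries. In the authors' deposited table the log2 fold changes of Ifi27l2a, Rtp4 and Slfn8, KO over WT, are -0.57, -0.78 and -0.52.

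**Figure D3:**
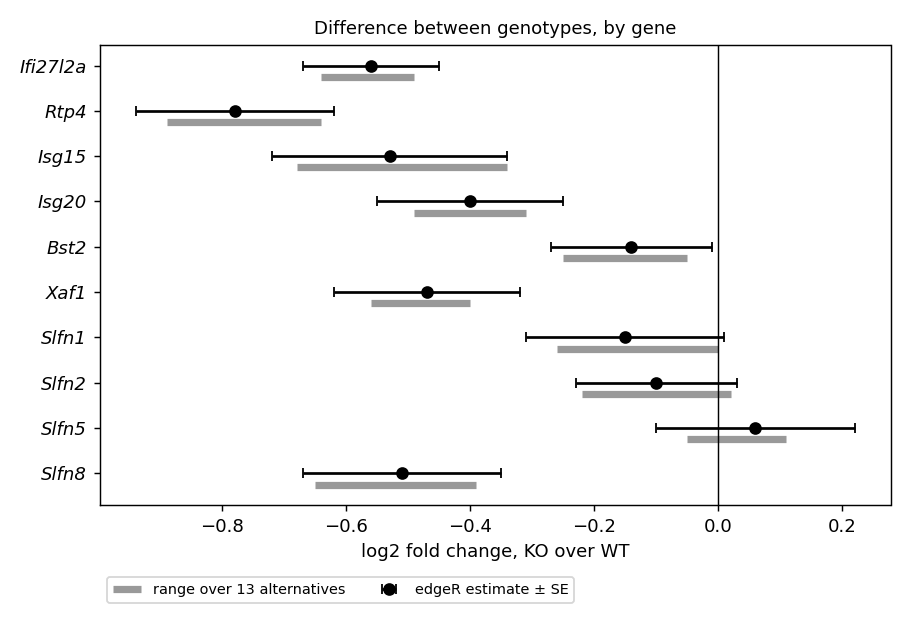
Log2 fold change of each gene, KO over WT, with points and bars giving the edgeR estimate ± SE from 3 libraries per genotype and grey bars the range over 13 alternative settings. Rtp4 lies furthest to the left at -0.78, and the ranges of Slfn2 (-0.22 to 0.02) and Slfn5 (-0.05 to 0.11) reach both sides of 0.

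The log2 fold changes of genes with and without the ISRE core overlapped. The 4 genes with the core had log2 fold changes from -0.53 (Isg15) to 0.06 (Slfn5), and the 4 without it from -0.47 (Xaf1) to -0.10 (Slfn2). Bst2 and Slfn8, both with the longer form, had -0.14 and -0.51.

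In some libraries of both genotypes, most of the 10 genes lay on 1 side of their genotype mean. Set against the mean of its own genotype in log2 CPM, KO replicate 1 was below the mean in 9 of 10 genes, with a median of -0.18, and KO replicate 3 was above it in 8 of 10, with a median of 0.15. Over all genes tested 52.9% and 50.8% lay above the mean in those libraries. In WT libraries 7, 2 and 5 of the 10 genes lay above the mean in replicates 1, 2 and 3, with smaller medians of 0.07, -0.08 and -0.01. KO replicate 1 was the lowest of all 6 libraries in 8 of the 10 genes. The largest single departures were in Isg15, 0.36 above its genotype mean in WT replicate 3, and in Slfn1, 0.33 below it in KO replicate 1 (a deviation of -0.33). Leaving out KO replicate 1, 8 of the 10 genes still had a lower mean in KO.

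**Figure D4:**
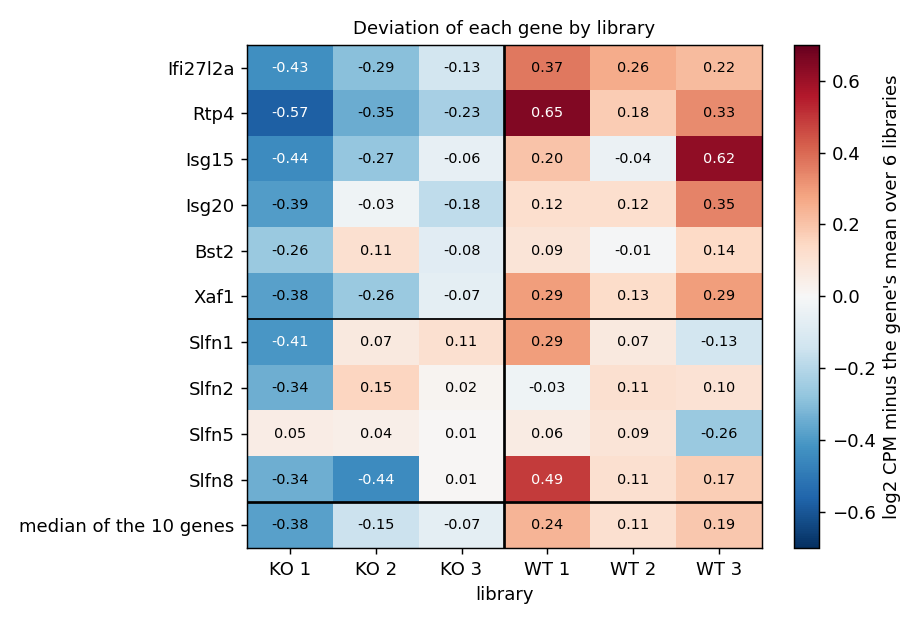
Log2 CPM of each gene in each library minus that gene's mean over the 6 libraries, blue for lower and red for higher, with the 3 KO libraries left of the 3 WT libraries. The bottom row is the median of the 10 genes, from -0.38 in KO replicate 1 to 0.24 in WT replicate 1.

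Outside the 10, the genes whose pattern over the 6 libraries was most like their median pattern were Abcb1a (a drug efflux pump), Fam91a1, Cdkn3 (a cell cycle phosphatase), Prelid3b and Otud4 (a deubiquitinase). Likeness was Pearson's r over the 6 libraries, from 0.980 to 0.991, given as a description because the libraries share their genotype difference and their scaling. Of 10680 genes averaging at least 50 counts, 57 (0.534%) had an r above 0.9. Abcb1a had 127, 151 and 155 CPM in KO and 186, 180 and 188 CPM in WT.

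The other genes of the interferon pathway give the setting. Of 38 other interferon-induced genes tested, 32 had a lower mean in KO and 6 a higher mean. Their median log2 fold change was -0.23. All KO libraries lay below all WT libraries in 12 of the 38, beside 4.67% of all genes tested, and none of the 12 passed by edgeR. At an unadjusted p under 0.05, 11 were lower and 0 higher, and DESeq2 with genotype alone called 4 lower and 0 higher. The viral RNA binders Ifit3b, Ifit1 and Ifit3, the OAS-like gene Oasl2, the interferon-induced gene Ifi44 and the dynamin-like GTPase gene Mx1 had the smallest p-values of that list. Oasl2 had 27.5, 18.8 and 21.4 CPM in KO and 34.2, 42.3 and 46.7 CPM in WT (log2 fold change -0.86 ± 0.21, SE). Ifi44 had 10.2, 7.02 and 20.0 CPM in KO and 35.9, 23.4 and 23.7 CPM in WT. Ifit3b, whose reads may be divided uncertainly with its near-identical copy Ifit3, had -1.80 ± 0.25 (SE), further from 0 than the -0.78 of Rtp4.

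Receptors and signalling genes were evenly divided, 7 of 14 lower and 7 higher in KO. The median log2 fold change was -0.01, and none passed (smallest adjusted p = 0.842, edgeR). Within that list, Irf9, which takes part in binding the ISRE, had 282, 256 and 258 CPM in KO and 338, 313 and 297 CPM in WT, and the groups did not overlap. Irf7, an amplifier of type I interferon, had 70.3, 58.7 and 84.0 CPM in KO and 107, 81.9 and 102 CPM in WT, with 1 KO library inside the WT range. Jak2 had 26.8, 33.3 and 37.2 CPM in KO and 48.7, 46.6 and 39.4 CPM in WT. Going the other way, Ifngr2, a chain of the interferon-gamma receptor, had 42.1, 46.8 and 60.5 CPM in KO and 33.3, 34.4 and 31.9 CPM in WT (log2 fold change 0.59 ± 0.18, SE). Socs1, a feedback inhibitor of JAK kinases, had 191, 108 and 106 CPM in KO and 172, 183 and 183 CPM in WT. At an unadjusted p under 0.05, 4 of the 14 were lower and 1 higher, and DESeq2 called 0.

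Of 7 Treg and T cell identity genes, 5 had a higher mean in KO and 2 a lower one. Their summed level was 4317 to 5275 CPM in KO and 3889 to 4270 CPM in WT. In 2 of the 7 all KO libraries lay above all WT libraries, beside 5.60% of all genes tested. Interferon effectors are not specific to Tregs, and Bst2 is abundant in plasmacytoid dendritic cells and plasma cells. Markers of macrophages and Kupffer cells (liver macrophages) had a higher mean in KO in 11 of 12 genes tested. Their summed level was 236 to 354 CPM in KO and 194 to 224 CPM in WT, the opposite direction to the 10 genes. Their median log2 fold change was 0.77, and in 5 of the 12 all KO libraries lay above all WT libraries. At an unadjusted p under 0.05 (edgeR), 6 were higher and 0 lower, and none passed (smallest adjusted p = 0.837, edgeR). DESeq2 called 0 of these markers with genotype alone, and 2 higher and 1 lower with the replicate block. Among the 3 most abundant, C1qb averaged 59.9 CPM in KO and 35.7 CPM in WT, and the groups did not overlap. They overlapped for Slc40a1 and Lyz2, and Lyz2 was highest in replicate 3 of each genotype (54.2 CPM in KO, 50.8 CPM in WT). The Kupffer cell marker Clec4f was not among the genes listed. KO replicate 1 had the lowest macrophage sum of the 3 KO libraries and also the lowest level in most of the 10 genes. That same library was the highest of the 6 for Foxp3, Cd3e and Cd4. These are values of 1 library, and a link between them was not tested. Markers of B and plasma cells summed to 2402 to 3207 CPM in KO and 2749 to 3798 CPM in WT. Ighm alone had 2315 to 3103 CPM in KO and 2683 to 3691 CPM in WT, so these sums describe mainly that gene. Counted gene by gene, 4 of the 7 markers tested had a higher mean in KO and 3 a lower one. The median of their log2 fold changes, KO over WT, was 0.41. By edgeR, 1 was higher and 0 lower at an unadjusted p under 0.05, and none passed (smallest adjusted p = 0.842). For plasmacytoid dendritic cells, 3 of the 7 markers sought were measured (Irf8, Tcf4 and Ccr9). They summed to 53.4 to 70.2 CPM in KO and 56.1 to 65.6 CPM in WT. All 3 had a slightly lower mean in KO, but for each the groups overlapped. Their log2 fold changes were -0.04 ± 0.17, -0.09 ± 0.27 and -0.21 ± 0.34 (SE). The defining marker of these cells, Siglech, was not among the genes listed. CD8 T and NK cell markers summed to 103 to 127 CPM in KO and 80.8 to 257 CPM in WT. Most of that sum was Nkg7, with 238 CPM in WT replicate 3 and 63.0 to 104 CPM in the other libraries. Neutrophil and monocyte markers summed to 33.5 to 35.1 CPM in KO and 26.5 to 47.6 CPM in WT. Nearly all of it was Ccr2, which averaged 33.0 CPM in KO and 35.9 CPM in WT. Csf3r of that list had 55 counts in KO replicate 3, 22 in WT replicate 3 and 0 in the other libraries. Of liver endothelial markers only Stab2 was measured, at 2.02 ± 1.17 CPM in KO and 1.49 ± 0.398 CPM in WT (SD, n = 3 each). Of 6 hepatocyte markers sought, 0 were among the genes listed. The part of other cells in the levels of the 10 genes was not tested.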

How the data were processed

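Liver Treg mRNA was sequenced from 6 low-input libraries, per the labels' protocols. The authors deposited 1 table with a whole-number count per gene and library. Build mm10 and the tools STAR, cutadapt and DESeq2 are named without versions or order, per the submitters' processing notes, and no source used here gives the counter, annotation or strand setting. Further deposited columns hold, per the file headers, a mean normalized signal over the libraries, a log2 fold change in 2 columns of opposite sign and its error, a test statistic (a score) and raw and adjusted p-values. The fold change used is the column headed as WT against KO, whose sign, set beside the counts, is positive where KO is higher. No gene listed has a mean normalized count under 5.96, so totals are over the genes listed. No 2 libraries of a genotype agreed within sampling noise (chi-square 38.5 to 69.5 per gene), and each counted as 1 replicate.

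The 18 rows whose name had become a date were left out, leaving 13605 genes. The test was that of edgeR 4.0.16 under R 4.3.3 (TMM, filterByExpr, quasi-likelihood test, genotype as the only term, Benjamini-Hochberg over 12789 genes). CPM uses TMM-scaled totals, log2 CPM a prior count of 2, and an SE is the log2 fold change over the square root of F. Alternatives were DESeq2 1.42.0, limma-voom (limma 3.58.1), other scalings, no filter, a replicate block and leaving out each library. On counts simulated for this comparison (12392 genes), edgeR called 7.69%, 35.4% and 77.0% of genes changed 1.5-fold, 2-fold and 4-fold. Positions and lengths came from GENCODE M21 (GRCm38, the assembly of mm10) and promoters from RefSeq.

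The genes described and all lists were chosen with earlier results of these data known. Named beside them are, per pathway or family list, up to 6 genes with the smallest unadjusted p averaging at least 50 counts, the 3 most abundant of each marker list, Foxp3 and Usp18, and the 5 genes of most similar pattern. Not all of these are printed, and 1 gene of the rule is not reported here.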

Additional observations from a re-analysis of the deposited data

How the results depend on the processing

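Over 13 alternative settings 8 to 10 of the 10 genes had a lower mean in KO. No log2 fold change of the 10 genes moved by more than 1 SD between replicates (0 of 130 values). That limit could hardly be passed, so it says little about robustness. Leaving out 1 of 3 libraries moves a mean by less than 1 SD, and the other settings refit the same counts. With genotype alone, DESeq2 called 17 genes higher and 29 lower against 0 and 0 by edgeR, among them 4 of the other interferon pathway genes lower. Leaving out 1 library in turn gave 0 genes higher and from 0 to 1 lower by edgeR. With the replicate number as a block, edgeR called 5 higher and 11 lower, and DESeq2 60 higher and 187 lower, 7 of them interferon pathway genes. The numbers were not taken as pairs because the labels do not say that they pair libraries. The deviations of same-numbered KO and WT libraries correlated at 0.11, 0.08 and 0.02 across genes, which cannot decide whether they do. All 6 libraries correlated best with their own number, and DESeq2 with the block shared 244 of the 247 deposited calls. Both are hints of pairing, which no label states. The deposited calls also number 60 higher and 187 lower, so the deposited fit looks like DESeq2 with this block. Signs turned on leaving out 1 library in turn for 6 named genes, the log2 fold change, KO over WT, running from -0.10 to 0.03 for Ube2l6 (0.03 without KO replicate 1), -0.13 to 0.05 for Aen (0.05 without KO replicate 1 or WT replicate 3), -0.34 to 0.55 for Slfn3 (-0.09 without KO replicate 2 and -0.34 without WT replicate 3), -0.32 to 0.23 for Xiap (0.23 without WT replicate 1), and -0.01 to 0.19 for Birc3 and -0.04 to 0.12 for Birc2 (both below 0 without WT replicate 2). The cause was not tested. With a minimum of 500 counts, 3 of the 5 genes of most similar pattern were among the first 5, as the others average fewer counts. The longer ISRE form was found in 2 genes, against 4 for the core. Counting error was at most 3.19% for the 10 genes, below the spread between the 3 libraries of a genotype except for Slfn5 in KO (coefficient of variation 1.60%).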
